A study of Mus musculus with 2 samples.

Results

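The p53 target genes described here are 10 genes that the tumour suppressor p53 is known to switch on: Mdm2, Ccng1, Bax, Bbc3, Pmaip1, Phlda3, Zmat3, Sesn2, Trp53inp1 and Gdf15. They were taken by symbol from a list of p53 targets, without the best known target, Cdkn1a, and all 10 were found among the 27998 genes of the count matrix. Their UMIs (unique molecular identifiers, each marking 1 captured RNA molecule) were read by cell type in 2 single-cell libraries of mouse lung at postnatal day 10, 1 labelled mutant and 1 labelled control. Both titles name Nkx2-1, which encodes a homeobox factor that directs the fate of lung epithelial cells, and the mutant's also names Aqp5, a water channel gene of alveolar type 1 (AT1) cells. The labels give neither the alleles, the part of Nkx2-1 that was deleted, the cells in which it was deleted nor the number of animals, and they do not say what the control carries. The study addresses the part Nkx2-1 plays in how AT1 cells, the thin cells of gas exchange, form and persist.

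p53 is kept scarce in unstressed cells by the ubiquitin ligase Mdm2, which is itself a p53 target and so closes a feedback loop. DNA damage, nucleolar stress and oncogene activity free p53 from Mdm2, after which it switches on genes that halt the cell cycle, repair DNA, adjust metabolism or trigger death through the mitochondria. In the lung, p53 activity has been described in alveolar epithelial cells that pass through transitional states after injury.

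The mutant library held 4551 barcodes and 47271104 UMIs, and the control library 4461 barcodes and 29862980 UMIs. After filtering, 4253 mutant and 3999 control cells were used. Only 27 barcodes occurred in both libraries. Cells of the epithelium outside the AT2-like, club-like and ciliated-like clusters are called the AT1 compartment, a class defined by exclusion because AT1 genes can be altered by the mutation. In it were 2224 mutant and 540 control cells, with medians of 12305 and 6404 UMIs per cell. The label does not carry over to most of the mutant cells, since the 10 AT1 marker genes summed to 3083 counts per 1000000 UMIs of the class (CPM) in the mutant compartment, against 37039 CPM in the control compartment. Nkx2-1 had 13.4 CPM in the mutant and 483 CPM in the control compartment, although a count of 3' tags does not by itself check the deletion. Each genotype was represented by a single library, so no test between them was made, and all values describe these libraries. The intervals in parentheses are exact 95% intervals and cover counting error only.

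The 300 bases around the annotated start of 3 members are shown first because they hold sequences of the kind that p53 binds, the p53 half-site, a motif of 10 bases, of which p53 usually binds a pair. The windows are the RefSeq promoters of build GRCm38.p6, from 250 bases before the start to 50 after it, and were found for 7 of the 10 members, in 10 windows. Capitals mark the half-sites. The Ccng1 window (chr11:40755237-40755536, minus strand) and the Bax window (chr7:45466849-45467148, minus strand) each hold a pair with 1 mismatch in all. The pair begins at position -195 with no gap in Ccng1 and at position -212 with a gap of 1 base in Bax. The Mdm2 window (chr10:117710709-117711008, minus strand) holds a single half-site without a mismatch, at position -186.
Ccng1: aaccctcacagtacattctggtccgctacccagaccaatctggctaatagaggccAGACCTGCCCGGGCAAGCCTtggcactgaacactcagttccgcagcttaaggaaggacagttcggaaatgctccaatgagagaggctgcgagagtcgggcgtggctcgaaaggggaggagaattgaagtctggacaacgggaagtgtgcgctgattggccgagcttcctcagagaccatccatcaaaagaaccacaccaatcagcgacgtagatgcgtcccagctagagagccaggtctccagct
Bax: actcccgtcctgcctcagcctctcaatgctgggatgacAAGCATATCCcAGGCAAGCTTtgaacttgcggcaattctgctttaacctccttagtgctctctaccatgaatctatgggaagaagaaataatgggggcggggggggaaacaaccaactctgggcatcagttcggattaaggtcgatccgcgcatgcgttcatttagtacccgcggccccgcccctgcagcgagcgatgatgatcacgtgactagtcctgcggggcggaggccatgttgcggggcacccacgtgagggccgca
Mdm2: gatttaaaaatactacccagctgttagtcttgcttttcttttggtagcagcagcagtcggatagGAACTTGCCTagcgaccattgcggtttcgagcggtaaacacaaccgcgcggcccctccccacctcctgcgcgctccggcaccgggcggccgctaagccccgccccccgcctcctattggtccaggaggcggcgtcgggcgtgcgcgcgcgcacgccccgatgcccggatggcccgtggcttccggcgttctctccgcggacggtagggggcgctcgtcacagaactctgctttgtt
Such matches are common. One half-site without a mismatch lay in 8.36% of the 32851 promoter windows, and a pair with at most 2 mismatches, 0 to 13 bases apart, lay in 10.1% of them, with both strands read and overlapping matches counted once per window. The windows of Phlda3, Sesn2, Bbc3 and Gdf15 held neither kind of match within these bases.

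In the AT1 compartment 7 of the 10 genes had a higher level in the mutant than in the control library, and Mdm2, Bbc3 and Sesn2 had less. Of the 10, 6 were at least 2-fold higher, where 21.9% of all 12766 genes with at least 20 UMIs were, and 0 were at least 2-fold lower, where 12.4% of all genes were. All 10 members passed that limit of 20 UMIs over both libraries, but Pmaip1 (971 mutant and 0 control UMIs) and Gdf15 (71 and 1) only through the mutant library. The mutant compartment held 30852560 UMIs and the control compartment 3658569. A gene could thus pass the limit at a lower level in the mutant than in the control, which favours higher calls among members and all genes. Their median log2 ratio was 1.48, with Pmaip1 taken at its lower bound, against 0.14 over all genes. Less this shift of all genes, the members' median was 1.34, and 2 members, Mdm2 (-1.05) and Bbc3 (-1.0, at the limit), were at least 2-fold lower. The share of all genes at least 2-fold lower after that scaling is not given, so this count has no background. In AT1-like clusters alone (167 mutant and 539 control cells) the median was 0.37. Of these mutant cells, 163 came from a cluster in which Nkx2-1 RNA stood at 185 CPM, above the level of the whole mutant compartment. There 3 members, Ccng1 (2.15), Phlda3 (3.42) and Trp53inp1 (2.44), were at least 2-fold higher and Sesn2 was lower (0.421, 0.127 to 1.10), while Pmaip1 had no UMI in either library. The share and the median of all genes are not given for this smaller comparison, so its counts are not set against a background.

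The feedback genes went opposite ways. Mdm2 (ENSMUSG00000020184; minus strand of chromosome 10) had 38.6 CPM (36.4 to 40.9, 1191 UMIs) in the mutant compartment and 72.7 CPM (64.2 to 82.0, 266 UMIs) in the control compartment, a ratio of 0.531 (0.464 to 0.609). Its log2 ratio was -0.91, or -1.05 less the shift of all genes. Over all epithelial cells the Mdm2 log2 ratio was 0.02, so its lower level rests on comparing the compartments. Ccng1 (ENSMUSG00000020326; minus strand of chromosome 11), which encodes cyclin G1, a partner of the phosphatase PP2A that acts on Mdm2, had 86.9 CPM (83.6 to 90.2) in the mutant and 29.5 CPM (24.2 to 35.6) in the control compartment. The ratio of Ccng1 was 2.94 (2.43 to 3.60). Trp53 itself, which encodes p53, had 79.4 CPM in the mutant and 45.4 CPM in the control compartment, a ratio of 1.75 (1.5 to 2.06), and Mdm4, a second inhibitor of p53, had 39.7 CPM in the mutant and 27.3 CPM in the control compartment, a ratio of 1.45 (1.18 to 1.80).

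The 3 genes of mitochondrial cell death also differed among themselves. Bax (ENSMUSG00000003873; minus strand of chromosome 7), whose product opens the outer mitochondrial membrane, was the most abundant member, with 254 CPM (249 to 260) in the mutant and 134 CPM (123 to 147) in the control compartment. Its ratio was 1.89 (1.73 to 2.08), and 36.8% of mutant against 26.1% of control cells had a Bax UMI once every cell was thinned to 2000 UMIs (85.1% and 56.5% before thinning). Bbc3 (ENSMUSG00000002083; plus strand of chromosome 7), which encodes the death activator PUMA, had 27.1 CPM (25.3 to 29.0) in the mutant and 49.2 CPM (42.3 to 56.9) in the control compartment, a ratio of 0.551 (0.468 to 0.651). Pmaip1 (ENSMUSG00000024521; plus strand of chromosome 18), which encodes NOXA, an antagonist of the survival protein Mcl1, stood at 971 UMIs in the mutant and 0 UMIs in the control compartment. That is 31.5 CPM in the mutant, against a limit of 0.82 CPM that a count of 0 allows in the control, or at least 38.4-fold higher. After thinning, 5.26% (4.37 to 6.27) of mutant compartment cells had a Pmaip1 UMI, against 0 of 540 control cells, which by the limit of 3 counts allows a share of up to 0.556%. Before thinning the mutant share was 22.6%. As a low background, 0 of 1008 mutant mesenchymal cells (up to 0.298%) and 0.0929% of control mesenchymal cells had a Pmaip1 UMI after thinning, with medians of 5493 and 6035 UMIs before it. Other classes had more, with 2.28% of mutant and 1.36% of control endothelial cells and 2.82% of mutant and 6.85% of control immune cells. Free RNA from lysed cells can add UMIs to a class, and its estimated share was 2.82% in the mutant and 2.17% in the control compartment.

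Among the 4 genes of growth restraint, RNA control and stress defence, 3 were at least 2-fold higher and Sesn2 was not. Trp53inp1 (ENSMUSG00000028211; plus strand of chromosome 4), which encodes a stress protein that enhances p53 activity, had 50.5 CPM (48 to 53, 1557 UMIs) in the mutant and 5.74 CPM (3.55 to 8.77, 21 UMIs) in the control compartment, a ratio of 8.79 (5.73 to 14.2). Phlda3 (ENSMUSG00000041801; plus strand of chromosome 1), whose product keeps the kinase Akt from the membrane, had 59.7 CPM (57.0 to 62.5) in the mutant and 8.20 CPM (5.53 to 11.7) in the control compartment, a ratio of 7.28 (5.09 to 10.8). Zmat3 (ENSMUSG00000027663; minus strand of chromosome 3), which encodes a zinc finger protein that binds RNA, had 23.1 CPM (21.5 to 24.9) in the mutant and 8.75 CPM (5.98 to 12.3) in the control compartment, a ratio of 2.65 (1.86 to 3.90). In thinned cells Trp53inp1 was seen in 8.36% of mutant and 1.11% of control cells, Phlda3 in 10.0% and 1.48%, and Zmat3 in 4.14% and 2.04%. Sesn2 (ENSMUSG00000028893; minus strand of chromosome 4), which encodes a sestrin that restrains the growth kinase complex mTORC1, had 6.77 CPM (5.89 to 7.76) in the mutant and 7.93 CPM (5.31 to 11.4) in the control compartment. The interval of its ratio, 0.855 (0.578 to 1.31), included 1, so a difference was not detectable at this depth. Sesn2 overlaps Gm12981 over 6089 bases on its own strand and Bax overlaps Gm45808 over 915 bases, so reads of these genes could have been shared out differently.

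The secreted member was the rarest. Gdf15 (ENSMUSG00000038508; minus strand of chromosome 8), a distant relative of the TGF-beta hormones released by stressed tissue, had 71 UMIs in 38 of the mutant compartment cells (2.30 CPM) and 1 UMI in the control compartment (0.273 CPM), a ratio of 8.42 (1.46 to 337). A single mutant cell held 12 of the 71 UMIs.

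**Figure D1:**
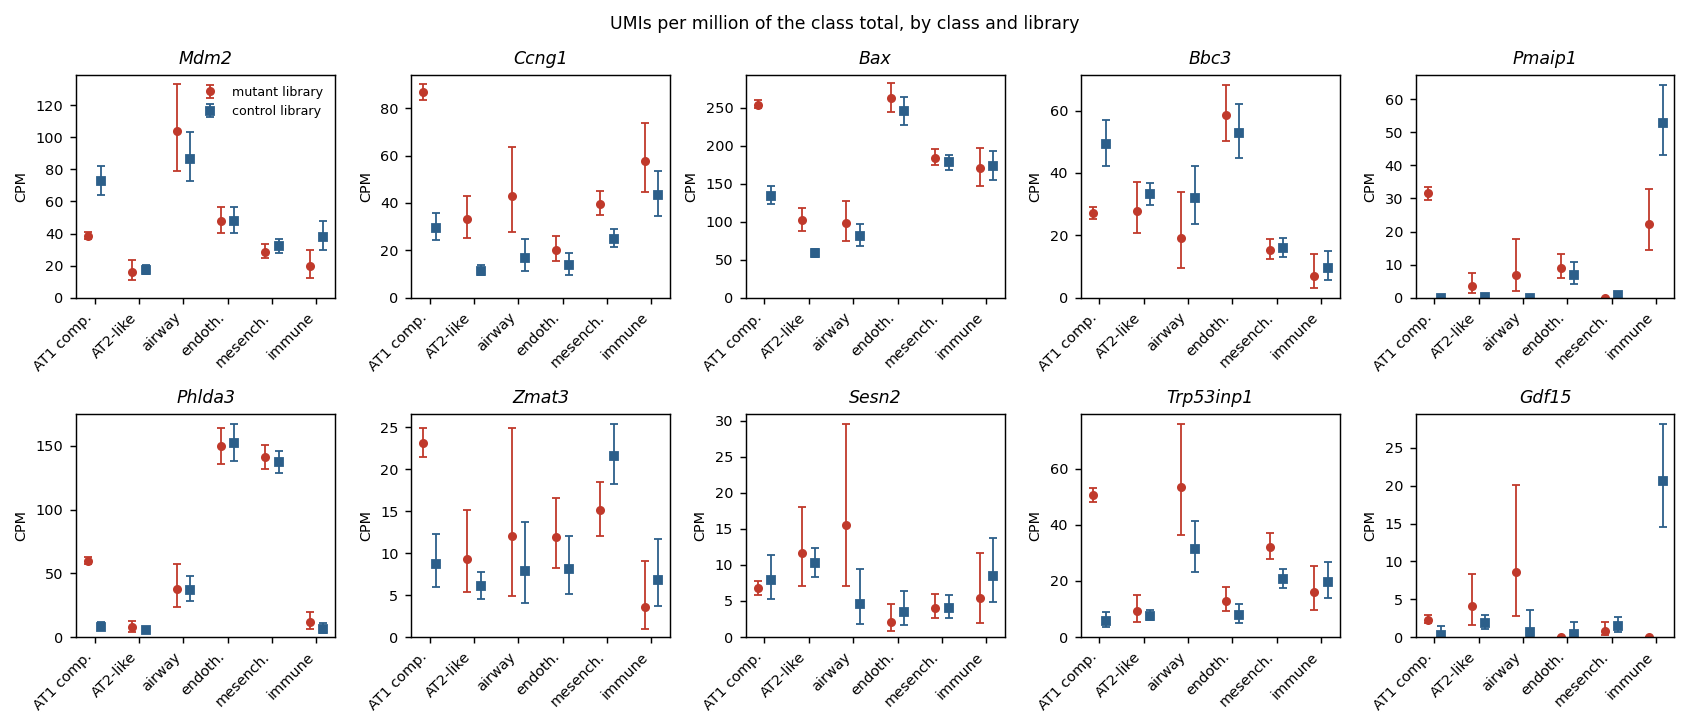
Level of each gene in CPM (vertical axes, linear from 0) in 6 cell classes (horizontal axes), with the mutant library as red circles left of the control library as blue squares; bars are exact 95% Poisson intervals, left out where the count is 0. In the AT1 compartment the mutant point lies above the control point for 7 genes and below it for Mdm2 (38.6 and 72.7 CPM), Bbc3 (27.1 and 49.2 CPM) and Sesn2 (6.77 and 7.93 CPM).

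The other genes of the pathway, from lists drawn up with earlier results of these data known, differed from list to list in the compartment, and each count stands against the 21.9% of all genes at least 2-fold higher and the 12.4% lower. Of 35 measured p53 targets outside the 10 members, 13 were at least 2-fold higher and 0 were at least 2-fold lower, and the median log2 ratio was 0.54. Cdkn1a, which encodes the cell cycle inhibitor p21, had 361 CPM in the mutant and 54.4 CPM in the control compartment, 6.64-fold higher (5.77 to 7.68). The largest ratios of that list were those of Ddit4l, an inhibitor of mTOR signalling, at 46.9 CPM in the mutant and 0 in the control compartment (at least 57.2-fold higher), and Psrc1, a spindle protein gene, at 25.2 CPM in the mutant and 0 in the control compartment (at least 30.8-fold higher). Its smallest were the death receptor gene Fas at 4.70 and 8.20 CPM (0.573) and the antiproliferative gene Btg2 at 239 and 410 CPM (0.583), in mutant and control. Rps27l, its most abundant gene, had 1135 CPM in the mutant and 714 CPM in the control compartment.

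Of the 20 genes that act on p53, 6 were at least 2-fold higher and 0 lower, with a median of 0.63, against 21.9% of all genes higher and a median of 0.14. Atm, the kinase gene of the double-strand break response, had 10.8 CPM in the mutant and 4.10 CPM in the control compartment (2.63-fold). The checkpoint kinase gene Chek1 had 7 CPM in the mutant and 0.273 CPM in the control compartment, with 1 control UMI and a ratio of 25.6 (4.55 to 1016). Kat5, an acetyltransferase gene, had the smallest ratio of this list, 0.633, followed by the kinase gene Hipk2 at 0.941, and its most abundant gene, the ribosomal protein gene Rpl11, stood at 1.39. Of 19 measured genes of the Bcl2 family and the caspases, 5 were at least 2-fold higher and 0 lower, with a median of 0.15, close to the 0.14 of all genes. Bok had 33.4 CPM in the mutant and 1.91 CPM in the control compartment (17.4-fold), and Bid 25.3 CPM in the mutant and 3.01 CPM in the control (8.43-fold), both pro-apoptotic. The survival gene Bcl2, named after its values were seen, had 13.4 CPM in the mutant and 1.64 CPM in the control compartment (8.18, 3.73 to 22.4). The smallest ratios were those of the survival gene Bcl2l2, 0.649, and of Diablo, an antagonist of caspase inhibitors, 0.732. The most abundant gene, cytochrome c (Cycs), which leaves the mitochondrion when Bax opens the membrane, had 304 CPM in the mutant and 313 CPM in the control compartment. Of 18 genes of the integrated stress response, a programme of amino acid and protein folding stress that also switches on Gdf15 and Sesn2, 3 were at least 2-fold higher and 5 lower, with a median of -0.38. Trib3 had 0.972 CPM in the mutant and 8.47 CPM in the control compartment (a ratio of 0.115), while Nupr1 had 551 CPM in the mutant and 5.19 CPM in the control compartment (106-fold). Of the serine synthesis genes, Phgdh had 59.6 CPM in the mutant and 22.4 CPM in the control compartment (2.66-fold), and Psat1 36.8 CPM in the mutant and 145 CPM in the control compartment (a ratio of 0.253).

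Outside the AT1 compartment fewer members passed 2-fold. Ccng1 was higher in both AT2-like and airway cells, while the members that passed in immune cells were other genes and were lower. In AT2-like cells, the makers of surfactant (219 mutant and 1270 control cells), 2 of 9 measured members were at least 2-fold higher, Ccng1 and Gdf15, where 7.45% of all genes were, and 0 were lower, where 4.76% were. Gdf15 rested on few UMIs (4.07 CPM in mutant and 1.84 CPM in control cells; 2.22, 0.782 to 5.56). The median of all genes was 0.19 there, and the members' median less that shift was 0.29. In airway cells 1 of 6 members, Ccng1, was at least 2-fold higher, where 8.28% of all genes were, and 0 were lower, where 6.63% were. These counts rested on 65 mutant and 135 control cells. In endothelial cells 0 of 8 members were at least 2-fold higher, where 7.16% of genes were, and 0 lower, where 2.16% were. In mesenchymal cells the counts were also 0 of 8 in each direction, where 6.9% of genes were higher and 2.42% lower. In immune cells 0 of 9 were at least 2-fold higher, where 9.07% of genes were, and 2 were lower, where 5.83% were. Mdm2 there had 19.6 CPM in the mutant and 38 CPM in the control cells (0.515, 0.304 to 0.840), a ratio close to that in the AT1 compartment.

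Ccng1 was the member whose ratio exceeded 1 in all 6 classes, although the intervals reached 1 in endothelial and immune cells. It had 33.2 CPM in mutant and 11.4 CPM in control AT2-like cells (2.90, 2.07 to 4.02). It had 43.1 and 16.9 CPM in mutant and control airway cells (2.55, 1.41 to 4.59). In mesenchymal cells it had 39.7 CPM in the mutant and 24.9 CPM in the control library (1.59, 1.30 to 1.95), in endothelial cells 20.3 and 13.7 CPM (1.48, 0.972 to 2.29) and in immune cells 57.8 and 43.3 CPM (1.34, 0.949 to 1.87). The p53 inhibitor gene Mdm4 was likewise above 1 outside the compartment, at 1.89 (1.45 to 2.48) in endothelial and 1.86 (1.56 to 2.22) in mesenchymal cells, and Cdkn1a stood at 1.93 (1.70 to 2.19) and 1.75 (1.43 to 2.16) there. Bax had a ratio of 1.74 (1.46 to 2.06) in AT2-like cells but 1.07 in endothelial, 1.04 in mesenchymal and 0.986 in immune cells. Trp53inp1 had a ratio of 1.56 (1.25 to 1.95) in mesenchymal cells, where Zmat3 had one of 0.698 (0.531 to 0.912). Within these classes the libraries also fell into clusters of their own. An endothelial cluster led by Ntrk2 and Sparcl1 held 249 mutant and 4 control cells, and one whose leading genes included Gpihbp1 and surfactant RNA (Sftpc) held 9 mutant and 320 control cells. Among mesenchymal cells, a cluster led by S100b and Foxq1 held 224 mutant and 1 control cells and one led by Aspn and Tgfbi held 2 mutant and 285 control cells, while of the AT2-like clusters one led by Sftpc, Sftpa1 and Retnla held 191 of the mutant and 97 of the control cells. A difference between the libraries as such cannot be told apart from one between the genotypes here.

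**Figure D2:**
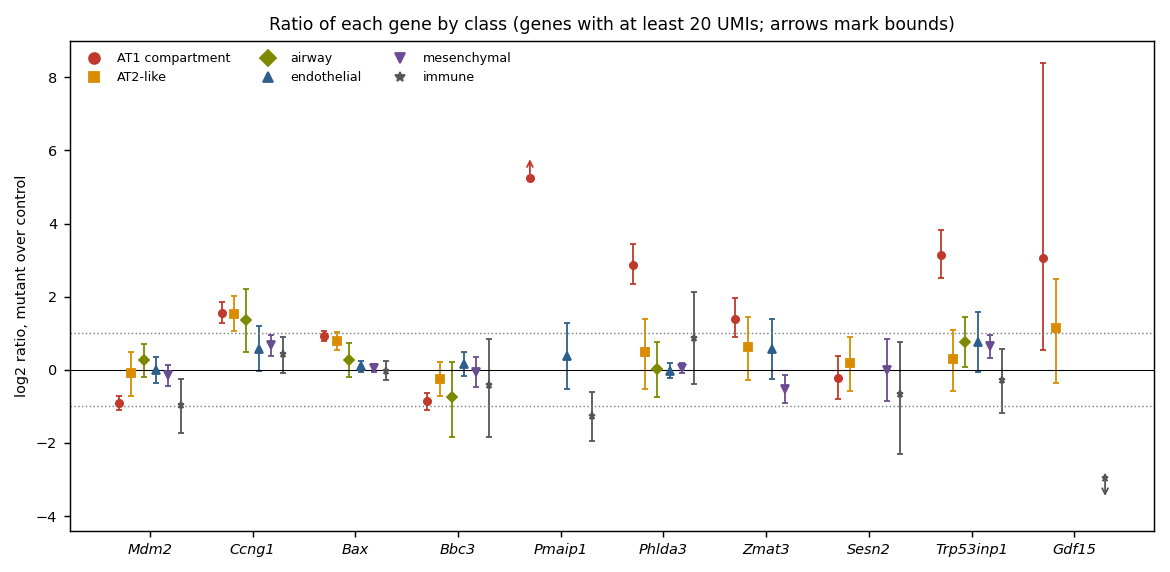
Log2 ratio of mutant over control (vertical axis) for each gene (horizontal axis) in 6 classes (symbols), with exact 95% conditional intervals; genes with under 20 UMIs over both libraries in a class are left out, arrows mark bounds where 1 library had no UMI, and dotted lines mark 2-fold. Pmaip1, Trp53inp1 and Phlda3 in the AT1 compartment lie farthest above 0 among genes with over 1 control UMI or a bound, and the endothelial and mesenchymal points lie between the dotted lines.

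Some members had their highest levels in cells other than the alveolar epithelium, and these types were chosen after their values were seen. Phlda3 reached 292 CPM in mutant and 395 CPM in control capillary cells of the Car4 type, and 293 and 295 CPM in mutant and control alveolar fibroblast-like cells. Its level in the mutant AT1 compartment, 59.7 CPM, thus stayed below the level of these types in either library. Mdm2 was highest in ciliated-like cells, with 220 CPM (164 to 289) in 41 mutant and 176 CPM (147 to 209) in 96 control cells. In the immune class the members that were at least 2-fold lower in the mutant were Pmaip1 and Gdf15. Pmaip1 had 34.1 CPM (8 UMIs) in 39 mutant and 195 CPM (58 UMIs) in 53 control monocyte-like cells. Gdf15 had no UMI in 44 mutant alveolar macrophage-like cells, which allows up to 12.9 CPM, against 194 CPM (38 UMIs in 15 of 38 cells) in the control. The estimated share of free RNA was 14.3% in mutant and 3.83% in control immune cells, and its part in these values was not tested.

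How many members a single cell expressed was counted after thinning to 2000 UMIs. In the AT1 compartment 8.18% of mutant and 1.11% of control cells had UMIs of 3 or more members, and 59.3% and 48.7% had at least 1. In endothelial cells 3 or more members were seen in 4.36% of mutant and 3.57% of control cells, and in mesenchymal cells in 2.98% and 2.42%. Some pairs of members met in the same mutant compartment cells, and others did so no more often than elsewhere. A Ccng1 UMI was seen in 31.8% of the 223 cells with a Phlda3 UMI, against 12.4% of the 2001 cells without one, and in 28.3% of cells with and 13.7% without a Zmat3 UMI. By contrast, Trp53inp1 was seen in 8.55% of cells with and 8.35% without a Pmaip1 UMI, Zmat3 in 4.27% and 4.13%, and Sesn2 in 1.25% of cells with and 1.15% without a Ccng1 UMI. In cells with and without an Mdm2 UMI, Ccng1 was seen in 20.3% and 13.8% in the mutant, and in 6.76% and 7.08% in the control compartment. These pairs were picked after their values were seen. Deeper cells were thinned to the same number of UMIs, but cell size and state were not matched.

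**Figure D3:**
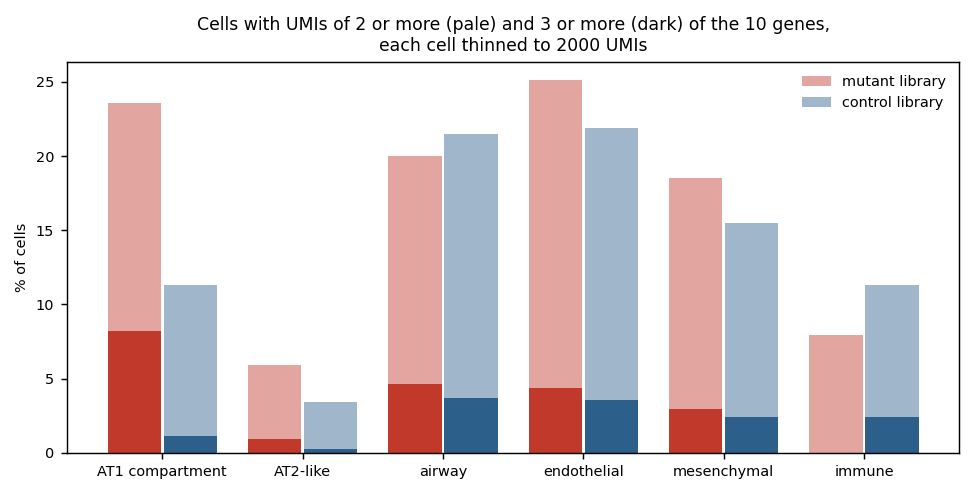
Share of cells in percent (vertical axis) with UMIs of at least 2 (pale) and at least 3 (dark, in front) of the 10 genes, by class (horizontal axis), mutant library left of control library, each cell thinned to 2000 UMIs. In the AT1 compartment the dark bars stand at 8.18% in the mutant and 1.11% in the control library.

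Apart from 4 cells, the mutant compartment fell into 7 clusters, made without any gene of the p53 lists, and the members differed between them. Cluster 10, led by AT1 genes such as Ager and Hopx, was shared by 163 mutant and 25 control cells, and cluster 6 held 1 control cell. The summed AT2 markers reached 25602 CPM in the mutant cells of cluster 10, against 396 to 2238 CPM in the other 6 clusters. The summed AT1 markers had 18596 CPM in the same cells, less than the AT2 markers. Nkx2-1 had 185 CPM in the mutant cells of cluster 10, against 2.07 to 15.4 CPM in the other 6 clusters. The control compartment had 483 CPM. Most control cells (514) formed another AT1-like cluster. The others were led by Akap5 and Ndnf (cluster 4), Gpx2 and Sprr1a (cluster 6), Sprr1a, Clu and Tm4sf1 (cluster 7), Clu, Sprr1a and Tff1 (cluster 2), Tff2 and Clu (cluster 5) and the cycling genes Top2a and Mki67 (cluster 9). Cluster 7, of 301 cells, was singled out after its values were seen. It had the highest level of all 7 clusters for Ccng1, Bax, Phlda3, Zmat3, Sesn2, Trp53inp1, Mdm2 and Bbc3. Its leading genes also included Ccnd2, Sema3c and Cdkn1a, although Cdkn1a had been kept out of the clustering.

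Of the 10 members, 7 were at least 2-fold higher in cluster 7 than in the other cells of the mutant compartment, where 5.2% of all genes were, and 0 were lower, where 6.82% were. Zmat3 had 70.3 CPM (62.2 to 79.2) in cluster 7 and 16.4 CPM in the other mutant cells (4.30, 3.69 to 5.01). Sesn2 had 19.3 CPM in cluster 7 and 4.97 CPM in the others (3.89, 2.89 to 5.20), although it was not higher in the mutant compartment as a whole. Trp53inp1 had 134 and 38.4 CPM (3.48), Phlda3 142 and 47.8 CPM (2.98) and Ccng1 179 and 73.6 CPM (2.43) in cluster 7 and the other cells. Pmaip1, at 2.13 (1.83 to 2.48), and Bbc3, at 2 (1.69 to 2.36), lay close to the limit of 2-fold. Bax had a ratio of 1.81 (419 and 231 CPM), Mdm2 one of 1.68 (59.8 and 35.6 CPM), and Gdf15, with 6 UMIs in cluster 7, one of 0.641 (0.227 to 1.47). Of the 35 other p53 targets measured, 9 were at least 2-fold higher in cluster 7 and 2 lower. Higher among them were Cdkn1a at 858 and 290 CPM, the death receptor gene Eda2r at 5.15 and 1.15 CPM and Psrc1 at 56.2 and 20.8 CPM. Trp53 RNA itself was lower there, at 59.5 CPM in cluster 7 and 82.3 CPM in the other cells (0.723, 0.629 to 0.829). UMIs of 3 or more members were found in 21.3% of the cells of cluster 7 after thinning, against 1.49% to 12.8% in the other 6 clusters.

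Cluster 7 held no cell with 10 or more UMIs of cell cycle genes among 2000. It had a median of 11991 UMIs and a median mitochondrial share of 4.15%, which was the highest of the 7 clusters (2.65% to 3.54% in the others). The part of the mitochondrial share in these levels was not tested. When only the 260 cells of cluster 7 and the 1197 other cells with at most 1 UMI of cell cycle genes were compared, 4 members were at least 2-fold higher, where 4.43% of all genes were, and 0 lower, where 4.3% were. These were Zmat3 (3.68), Sesn2 (3.26), Trp53inp1 (2.77) and Phlda3 (2.52), with Ccng1 at 1.97 and Bax at 1.70. With the mutant library clustered alone, a cluster of 308 cells held 83.4% of the cells of cluster 7, which made up 81.5% of it, and 6 members were at least 2-fold higher there. The share of all genes is not given for that cluster, so this count is not set against a background.

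**Figure D4:**
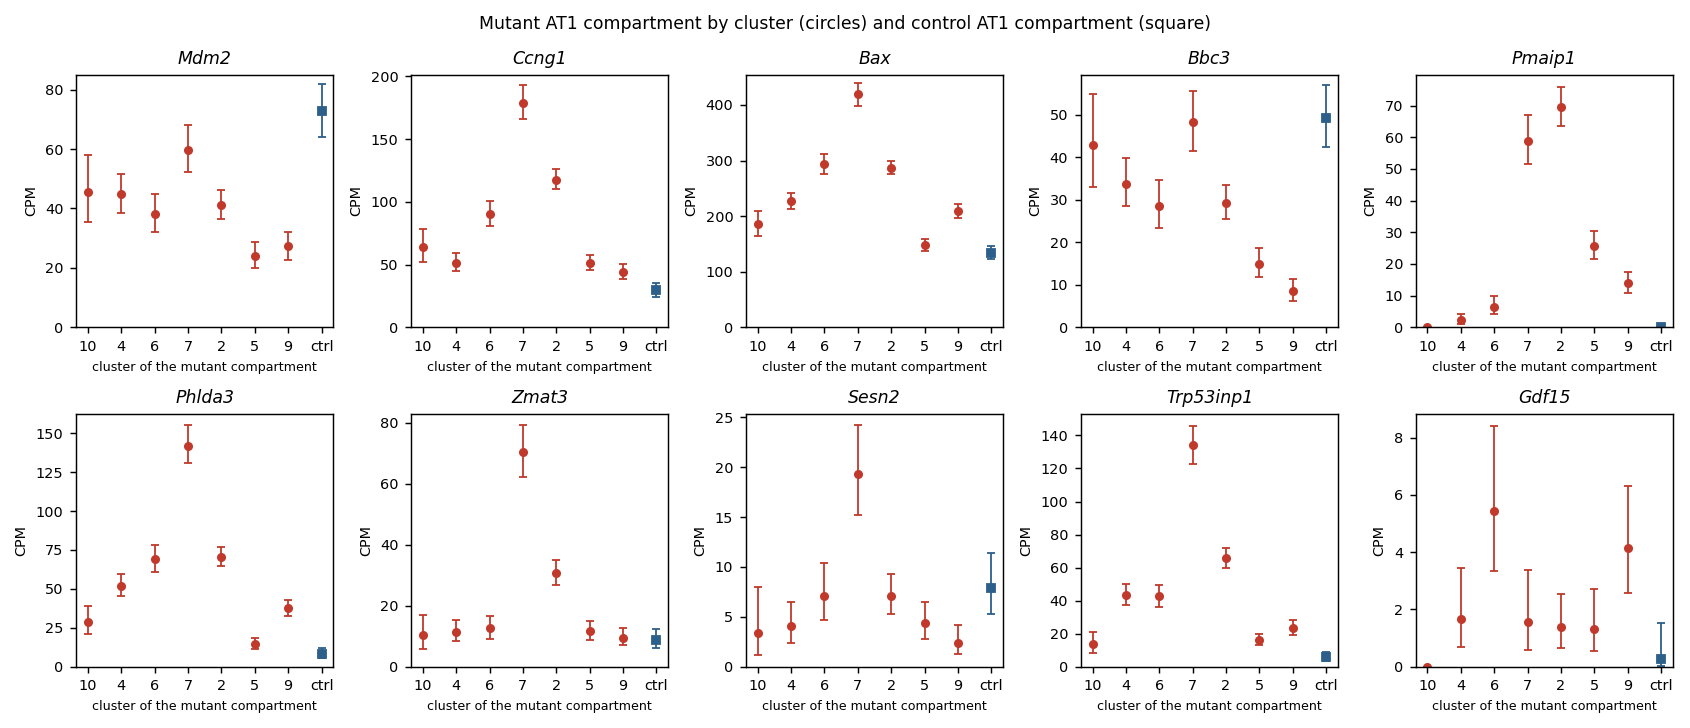
Level of each gene in CPM (vertical axes, linear from 0) in the 7 clusters of the mutant AT1 compartment (red circles, cluster numbers on the horizontal axes) and in the control AT1 compartment (blue square, right); bars are exact 95% Poisson intervals, left out where the count is 0. Cluster 7 has the highest mutant point for 8 of the 10 genes, Pmaip1 is highest in cluster 2 (69.6 CPM), and the Mdm2 points of all 7 clusters lie below the control point (72.7 CPM).

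Pmaip1 followed another order. It had 69.6 CPM (63.7 to 76.0) in cluster 2 and 58.7 CPM (51.4 to 66.9) in cluster 7, whose intervals meet. It had 25.8 CPM in cluster 5, 14.0 CPM in cluster 9, 6.53 CPM in cluster 6 and 2.14 CPM in cluster 4. In the mutant cells of cluster 10 it had no UMI (0 to 2.51 CPM), an interval that meets that of cluster 4 (0.978 to 4.06). The control compartment had no UMI either. Mdm2, unlike Pmaip1, was below the control compartment in every one of the 7 clusters, with ratios to it of 0.332 in cluster 5 to 0.822 (0.686 to 0.984) in cluster 7. Bbc3 was at 48.2 CPM in cluster 7 and 42.9 CPM in cluster 10, close to the 49.2 CPM of the control compartment, and at 8.47 CPM in the cycling cluster 9. Within cluster 10 itself, Mdm2 had 45.6 CPM in the mutant and 38.9 CPM in the control cells (1.17, 0.539 to 3.03), the other direction from the compartments, with an interval that includes 1. Ccng1 there had 64.0 CPM in the mutant and 16.7 CPM in the control cells (3.84, 1.27 to 19.0), where the 25 control cells had 3 UMIs, and Bax had 185 CPM in the mutant and 117 CPM in the control cells (1.59, 1.02 to 2.61).

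Cycling cells of the mutant compartment had less of most members. Cells with at least 10 UMIs of S, G2 and M phase genes among 2000 (253 cells) were set against those with at most 1 (1457 cells). Of the 10 members, 9 were lower in the cycling cells and 7 of them were at least 2-fold lower, where 8.18% of all genes were. None was at least 2-fold higher (7.57% of all genes were). Bbc3 had 8.69 CPM in cycling and 34.5 CPM in non-cycling cells (0.252, 0.178 to 0.347), and Sesn2 had 2.17 CPM in cycling and 8.44 CPM in non-cycling cells (0.257). In the same order of cycling and non-cycling cells, Zmat3 had 9.12 and 30.3 CPM (0.301), Trp53inp1 23.2 and 66.4 CPM (0.350), Pmaip1 14.1 and 39.7 CPM (0.356), Ccng1 43.4 and 110 CPM (0.395) and Phlda3 34.5 and 75.4 CPM (0.458). Mdm2, at 25.8 and 45.8 CPM (0.565), and Bax, at 199 and 289 CPM (0.690), differed less, and Gdf15 was at 4.34 and 2.39 CPM (1.81, 1.01 to 3.14). Cdkn1a, which halts the cycle, had 157 CPM in cycling and 472 CPM in non-cycling cells. Between the libraries, the G2 and M phase genes were all at least 2-fold higher in the mutant compartment, 30 of 30 measured, and so were 23 of 25 S phase genes.

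**Figure D5:**
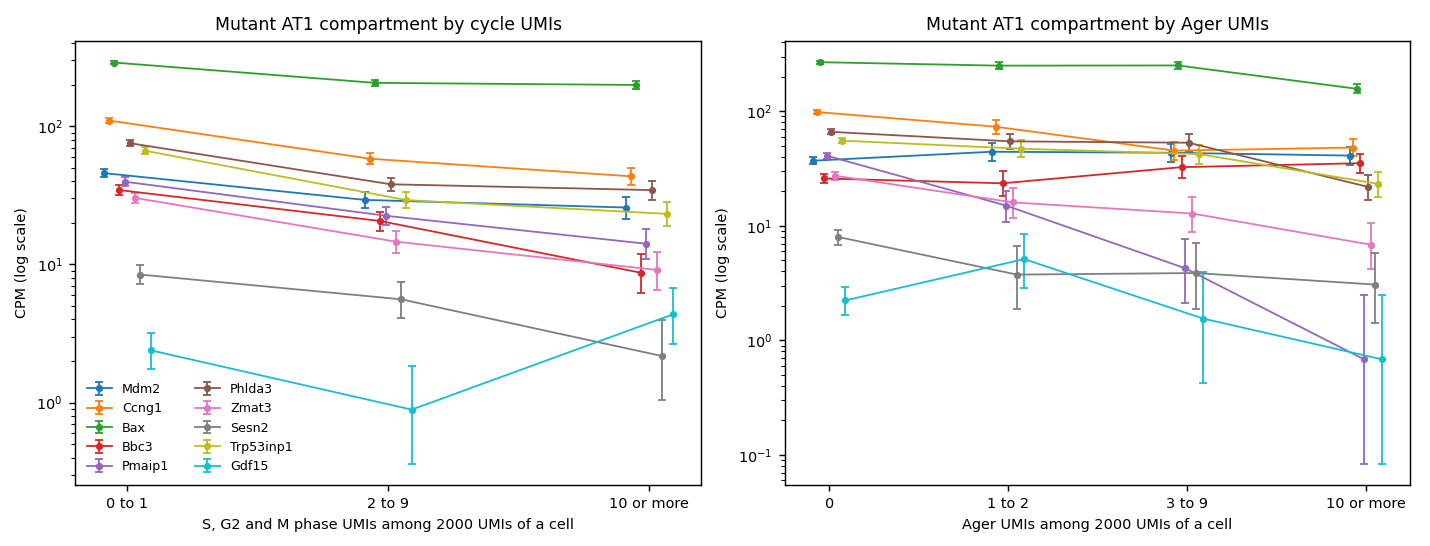
Level of each gene in CPM (vertical axes, log scale) in cells of the mutant AT1 compartment, by UMIs of cell cycle genes (left panel) and by UMIs of Ager (right panel) among 2000 UMIs of a cell; bars are exact 95% Poisson intervals. In the left panel 9 of the 10 genes are lower in cells with 10 or more cycle UMIs than in cells with 0 to 1, and in the right panel Pmaip1 is at 40.8 CPM in cells without an Ager UMI and at 0.683 CPM in those with 10 or more.

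The level of Ager, which marks AT1 cells, ordered some members and not others within the mutant compartment, in bins chosen after the data were seen. Cells with 0 (1512 cells), 1 to 2 (213), 3 to 9 (219) and 10 or more (280) Ager UMIs among 2000 had 40.8, 15, 4.26 and 0.683 CPM of Pmaip1. Zmat3 followed the same order, with 27.4, 16.0, 12.8 and 6.83 CPM, and so did Trp53inp1, with 55.4, 47.1, 42.2 and 23.2 CPM. Phlda3 had 66.1, 54.6, 53.1 and 21.9 CPM. The intervals of the bins of 1 to 2 and 3 to 9 UMIs overlap for Zmat3, Trp53inp1 and Phlda3, as do those of the bins of 0 and 1 to 2 UMIs for Trp53inp1 and Phlda3. Between the lowest and the highest bin Ccng1 fell from 98.5 (94.4 to 103) to 48.2 (40.5 to 56.8) CPM, and Bax from 268 (261 to 275) to 157 (143 to 172) CPM. Mdm2 had 37.0 (34.5 to 39.6), 44.3 (37.0 to 52.6), 43.4 (35.7 to 52.2) and 41.0 (34.0 to 49.0) CPM, whose intervals overlap. Bbc3 had 25.9 (23.8 to 28.1), 23.5, 32.5 and 35.2 (28.7 to 42.7) CPM, so it was higher in the highest Ager bin than in the lowest. Median depth also differed, from 13205 UMIs in cells without Ager to 9748 UMIs in those with the most, and its part in the order was not tested. Of the marker lists of other cell types, 6 were summed, and none of these had a higher sum in the mutant compartment. The gastric secretory, basal and neuroendocrine lists were not summed. Of the gastric secretory markers, Tff2 had 1505 CPM and Tff1 741 CPM in mutant cluster 5. The 10 AT2 markers had 2070 CPM in the mutant and 6634 CPM in the control compartment, the 8 ciliated markers 315 and 1694 CPM, the 7 club markers 125 and 380 CPM, the 6 endothelial markers 13.2 and 28.2 CPM, the 7 mesenchymal markers 28.9 and 49.2 CPM and the 7 immune markers 16.0 and 16.1 CPM. Of these markers only Bpifa1 was at 0 in the mutant compartment, and Scgb3a1, Muc5b, Bpifa1 and Sntn were at 0 in the control compartment.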

How the data were processed

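Lung epithelial, immune, endothelial and mesenchymal cells purified by FACS were profiled with 10x 3' chemistry (v2), per the labels' protocols. The authors deposited UMI counts, whole numbers without normalization, for every gene of every barcode. The submitters' processing notes name mm10, Cell Ranger and Seurat; no version, annotation or cell filter is given in the sources consulted. The shallowest barcode had 3874 UMIs in the mutant and 2278 UMIs in the control library.

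Barcodes were kept if they had 500 or more genes and a mitochondrial share below 10%. Doublets were scored with Scrublet in scanpy 1.11.5. The highest scores were removed up to the expected rate of 0.8% per 1000 cells (165 mutant and 142 control cells), in place of the automatic threshold. Of the simulated doublets, 58.2% in the mutant and 60.4% in the control library scored above that limit. Both libraries were clustered together without integration (2000 variable genes, 30 principal components, 20 neighbours, leidenalg 0.10.2 at resolution 1), leaving out every gene of the 7 gene lists and mitochondrial, ribosomal and sex-linked genes. Clusters were named from marker genes at a mean log2 fold of at least 1.5 with at least 3 markers seen, and 78 mutant and 53 control cells of mixed clusters were left out.

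UMIs were summed per class and library and divided by the class total (CPM). Ratios are mutant over control with exact conditional binomial intervals, from scipy 1.17.1. CPM intervals are exact Poisson and shares exact Clopper-Pearson, except that the limit of a share at 0 is 3 cells of the total, and a count of 0 in either library was replaced by a floor of 3 counts for that class. Genes counted had at least 20 UMIs over both libraries. The code was tested on simulated counts. Of the other genes named, each list other than the cell cycle lists gave, for the AT1 compartment, its most abundant gene and its 2 largest and 2 smallest ratios, and further genes were named after their values were seen.

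The members and lists were chosen with earlier results of these data known. The doublet rule, the naming minimum, the rule for mixed clusters, the Ager and cycle bins, the cell types singled out and the comparison of cluster 7 were chosen after seeing the data.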

Additional observations from a re-analysis of the deposited data

How the results depend on the processing

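No member's ratio with a call in the AT1 compartment reversed under the alternatives run, but not every call was kept. Members at least 2-fold lower there numbered 2 when scaled by the median ratio of all genes, 1 with a mitochondrial share under 5% and 1 in AT1-like clusters alone. In AT1-like clusters alone, which compare mostly mutant cluster 10 with control cluster 1, 3 members were at least 2-fold higher and the median log2 ratio was 0.37. Pmaip1, Zmat3 and Gdf15 were not called there. Pmaip1 had no UMI in either library, so its ratio could not reverse. AT2-like members at least 2-fold higher numbered 1 under the median scaling, the mitochondrial limit of 5%, each library clustered alone, cells with at most 1 cycle UMI and a minimum of 100 UMIs, and 4 with doublets kept. Airway members numbered 2 higher and 1 lower by the mean over cells, 2 higher with doublets kept, 4 higher with a minimum of 1 UMI and 0 higher with a minimum of 100. Immune members numbered 1 higher with doublets kept, 1 higher and 4 lower with the limit of 5%, and 1 lower with a minimum of 100 UMIs. The share of all genes under the same setting is not given for these class counts, so they only show how the calls moved. For cluster 7 the count was 4 in cells with at most 1 cycle UMI, an alternative chosen after seeing the data. The cause of these shifts was not tested. Subtracting free RNA moved the immune log2 ratios of Phlda3 to -1.72 and of Zmat3 to -3.10. Shares of cells were lower with thinning to 1000 UMIs by construction. No paired analysis was possible because each group had 1 library. Depth limits the rare members: a count of 0 allows 0.82 CPM in the control compartment but 5.18 CPM in mutant airway cells.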

Other observations

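Across the 12 class and library levels, the genes whose log2(CPM + 1) followed a member most closely differed from member to member. Bax was followed by Prelid1 (Pearson's r 0.976), Bbc3 by Efna1 (0.966), Phlda3 by Ltbp4 (0.960), Zmat3 by Gnpnat1 (0.926), Mdm2 by Cfap43 and Wdr92 (both 0.920), Trp53inp1 by Plekhg3 (0.910), Sesn2 by Eya1 (0.898), Pmaip1 by Neurl3 (0.897), Ccng1 by Ptp4a2 (0.869) and Gdf15 by Gm16062 (0.813). The 12 points share 2 libraries and their depths, and these values are descriptions chosen as the highest among all genes with at least 100 UMIs.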
